A study of Mus musculus with 18 samples.

Results

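The 10 genes of the elastic fibre and its microfibrils described here were measured across 18 RNA libraries of mouse cardiac tissue. They are Eln, Fbn1, Mfap5, Mfap4, Fbln5, Efemp2, Efemp1, Fbln1, Fbln2 and Emilin1, chosen by name, and they are 10 of the 12911 genes to which the deposited transcript values could be summed. All 10 were found and all 10 passed the filter on low values. Elastic fibres let the walls of arteries, valves and the cardiac interstitium recoil after stretch. In their assembly a scaffold of fibrillin microfibrils receives soluble tropoelastin, small glycoproteins such as fibulins bring tropoelastin to the scaffold, and lysyl oxidases cross-link it into insoluble elastin. Microfibrils also hold latent TGF-beta, which ties this matrix to growth factor signalling. In the heart the makers of these proteins are mainly fibroblasts, the smooth muscle cells of vessels and cells of the outer and inner linings.

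All mice carried the WT genotype, of strain C57BL/6 by the title of the study, and were treated for 28 days. The saline group received saline only. The AngII group received angiotensin II, a peptide hormone that raises blood pressure, at 500 ng per kg per min. The AngII+ETH group received the same infusion together with ethoxysanguinarine (ETH, a plant alkaloid) at 10 mg per kg per day. Each group had 6 libraries made from total RNA depleted of ribosomal RNA. The tissue is labelled cardiac, and the summed level of 6 cardiomyocyte markers was 2998 to 10286 FPKM over all libraries. Whether every library had its own animal is not stated in the labels, and p-values therefore cover the spread among these samples alone, which may be technical.

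Values are FPKM (fragments per length of transcript, relative to library size), summed over the annotated transcripts of a gene. The unit was inferred from the values. By that inference a library had 63.9 to 80.55 fragments per FPKM and kb, and the fewest fragments behind any member's value were about 305.5 (Efemp1). In bulk tissue fewer cells of a type and less RNA per cell cannot be told apart, which applies to every value below. The libraries also differed in markers of the heart chambers. A value of 0 for Myl7, a myosin light chain of atrial muscle, was found in 1 library of each group (AngII+ETH replicate 4, AngII replicate 3 and saline replicate 5), and Myl2, the ventricular light chain, was under 10 FPKM in saline replicate 6 and AngII replicate 5. Adipoq, an adipocyte hormone, was above 100 FPKM in saline replicates 4 and 6 only. The same libraries had the highest summed levels of smooth muscle markers (1511 and 1236 FPKM), so leaving them out removes both. Fibroblast and smooth muscle markers were above 0 in every library, while 2 of 6 mesothelial markers were listed at 0 in each of the 3 libraries without Myl7 and in AngII+ETH replicate 1. The member comparisons and correlations below are given with and without the libraries with Myl7 at 0.

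Promoter windows from RefSeq (GRCm38.p6, 250 bases before to 50 after a gene's start) were matched for 7 of the 10 members, in 11 windows, since some genes have several starts. Eln, Mfap4 and Mfap5 had no window and were not searched. Windows of 1 gene can overlap. That of Fbn1 is shown because it had the largest log2 fold change for AngII+ETH against AngII, and that of Efemp1 because it had the most negative one against saline. Fbn1 is read on the minus strand at chr2:125506389-125506688 and Efemp1 on the plus strand at chr11:28852955-28853254. The Fbn1 window surrounds a start that lies inside the GENCODE span of the gene given below, whose outer end (125507993) belongs to another transcript. Capitals mark the GC box, GGGCGG on either strand, which was the only one of 6 motifs with a match in these windows.
Fbn1: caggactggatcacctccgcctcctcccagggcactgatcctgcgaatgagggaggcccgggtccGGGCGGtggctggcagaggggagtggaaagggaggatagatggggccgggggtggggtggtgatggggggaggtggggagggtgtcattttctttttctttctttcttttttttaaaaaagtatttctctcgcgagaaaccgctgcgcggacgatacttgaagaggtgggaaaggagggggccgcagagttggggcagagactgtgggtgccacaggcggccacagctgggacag
Efemp1: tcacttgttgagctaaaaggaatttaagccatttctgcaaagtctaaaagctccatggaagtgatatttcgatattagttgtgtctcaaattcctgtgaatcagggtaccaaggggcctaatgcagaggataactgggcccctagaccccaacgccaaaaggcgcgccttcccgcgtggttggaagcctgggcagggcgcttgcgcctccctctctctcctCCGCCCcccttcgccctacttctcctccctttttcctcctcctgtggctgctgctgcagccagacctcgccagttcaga
Of the 11 windows, 8 held a GC box, which 35.7% of all 32851 windows hold, and they belonged to 6 members. The CCAAT box (CCAAT, 37.4% of windows) was matched in 2 windows, of Fbln5 and Emilin1. The SMAD element (CAGACA, 21%) was matched in 4, of Fbln1, Fbln5 and Emilin1. The TATA box (TATAAA, 13.6%), the AP-1 site (TGACTCA, 5.2%) and the TEAD site (CATTCC, 14.7%) had no match in any of the 11 windows. Both strands were searched, and a match is a description of letters only.

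The members covered a wide span of levels. Over all 18 libraries the median was 136.7 FPKM for Fbln1, 45.6 for Fbln2, 27.4 for Eln, 25.9 for Mfap5, 21.6 for Mfap4, 16.6 for Fbn1, 14.3 for Efemp1, 11.7 for Fbln5, 5.56 for Efemp2 and 4.38 for Emilin1. The ranges of every 2 neighbours in this order overlapped. Over the 18 libraries the highest value exceeded the lowest by 24.0-fold for Mfap4, 15.2-fold for Eln and 12.6-fold for Efemp1, and by 3.26-fold for Fbln2.

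**Figure D1:**
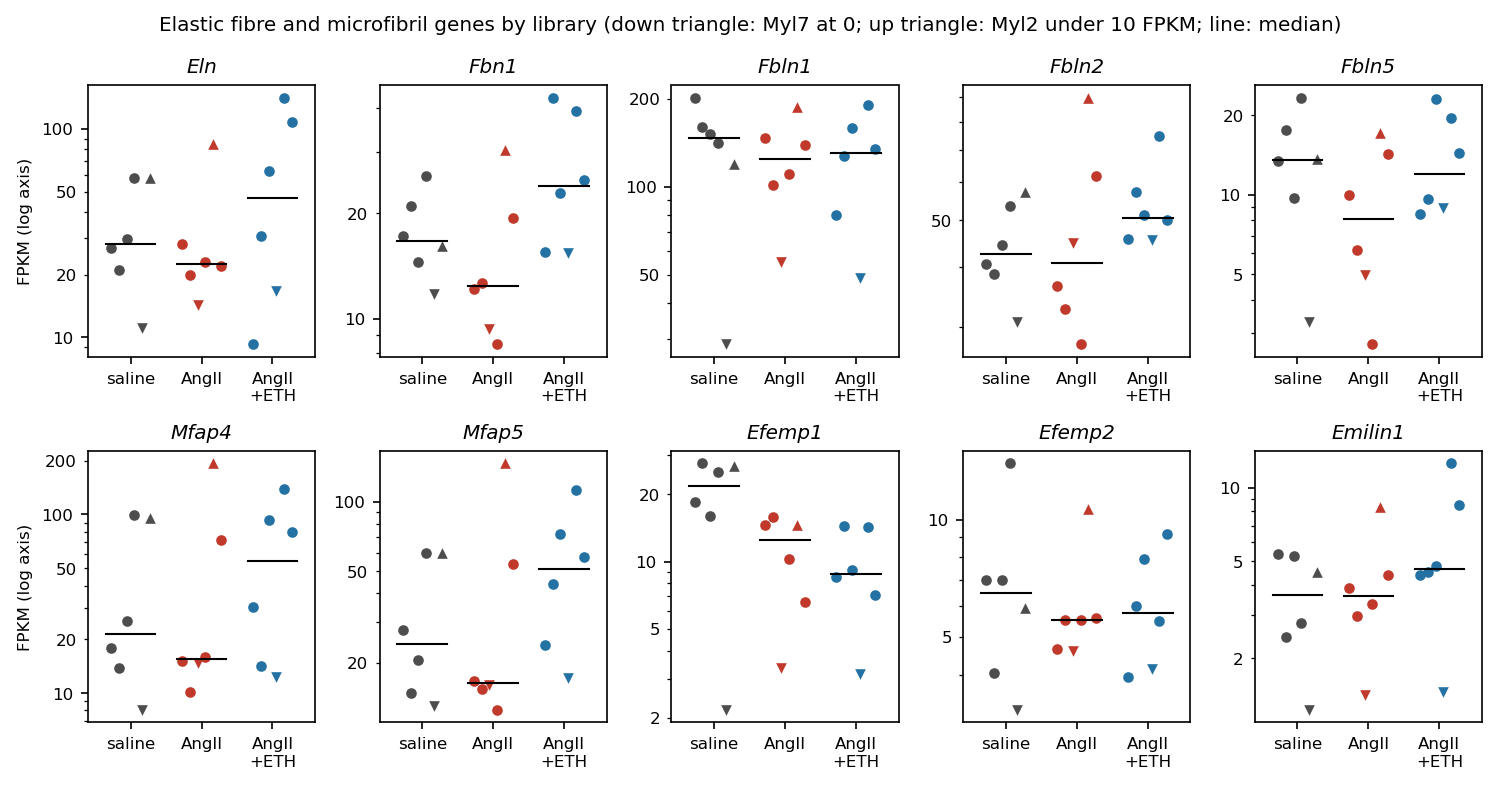
FPKM of each of the 10 genes (vertical log axis) in the 18 libraries, by group; each symbol is a library, the line is the group median, down triangles are the 3 libraries with Myl7 at 0 and up triangles the 2 with Myl2 under 10 FPKM. The groups overlap for every gene, and the down triangles are the lowest symbol of their group in 22 of 30 sets of a gene and a group. The share of such sets over all genes was not counted.

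Eln encodes tropoelastin, the soluble precursor of the elastic core (chromosome 5, 134702593 to 134747323, minus strand, GRCm38). It ranged from 11.1 to 58.1 FPKM in saline with a median of 28.2, from 14.3 to 84.7 in AngII with a median of 22.5, and from 9.26 to 141.05 in AngII+ETH with a median of 46.7. The groups overlapped throughout. Saline replicates 4 and 6 (58.1 and 57.9) and AngII replicate 5 (84.7) stood above the rest of their groups, whereas the AngII+ETH libraries were spread over their whole range. The transcript Eln-201 held 57.3 to 98.4% of the gene's value per library. The rest was mainly Eln-204, whose median share was 14.5% in saline, 3.26% under AngII and 1.82% under AngII+ETH, with overlapping ranges. The AngII+ETH files do not list Eln-203, so for these shares a difference in processing cannot be told apart from treatment.

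Fbn1 encodes the fibrillin that forms the microfibril backbone (chromosome 2, 125300594 to 125507993, minus strand). In saline it was 11.7 to 25.5 FPKM (median 16.6), in AngII 8.44 to 30.2 (median 12.4) and in AngII+ETH 15.4 to 42.7 (median 23.8). In AngII, 4 libraries lay below every AngII+ETH library, and AngII replicates 5 and 6 (30.2 and 19.3) lay among them. Mfap5 encodes a microfibril-associated glycoprotein that binds fibrillin (chromosome 6, 122505845 to 122529290, plus strand). Its values were 13.0 to 60.04 FPKM in saline (median 24.2), 12.5 to 147.4 in AngII (median 16.3) and 17.1 to 113.1 in AngII+ETH (median 50.9). In AngII, 4 libraries were within 12.5 to 16.6 FPKM, and replicates 6 (53.5) and 5 (147.4) stood above them.

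Mfap4 encodes a fibrinogen-like glycoprotein that binds tropoelastin and fibrillin (chromosome 11, 61485431 to 61488900, plus strand). It spanned 8.08 to 99.3 FPKM in saline (median 21.6), 10.2 to 193.8 in AngII (median 15.6) and 12.3 to 138.3 in AngII+ETH (median 55.2). Values fell into a low band of 8.08 to 30.5 FPKM in 11 libraries and a high band of 72.4 to 193.8 in 7, and both bands held libraries of every group. The high band comprised saline replicates 4 and 6, AngII replicates 5 and 6 and AngII+ETH replicates 3, 5 and 6.

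The tropoelastin-binding fibulin Fbln5, which mice need to build elastic fibres, lies on chromosome 12 (101746565 to 101819055, minus strand). It was 3.30 to 23.3 FPKM in saline (median 13.6), 2.72 to 17.2 in AngII (median 8.07) and 8.42 to 23.1 in AngII+ETH (median 12.0). The groups overlapped, and the lowest values were those of AngII replicate 4 (2.72) and saline replicate 5 (3.30). Efemp2 encodes a fibulin that brings lysyl oxidase to tropoelastin (chromosome 19, 5473954 to 5482517, plus strand). Its level was low, at 3.25 to 14.0 FPKM in saline (median 6.47), 4.61 to 10.7 in AngII (median 5.53) and 3.95 to 9.18 in AngII+ETH (median 5.75).

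Efemp1 encodes a related fibulin found in basement membranes and connective tissue (chromosome 11, 28853204 to 28926743, plus strand). In saline it was 2.18, 15.9, 18.4, 25.0, 26.6 and 27.5 FPKM, from lowest to highest. In AngII it was 3.34, 6.57, 10.3, 14.5, 14.6 and 15.8, and in AngII+ETH 3.14, 7.09, 8.51, 9.13, 14.2 and 14.4. The lowest value of each group came from the library with Myl7 at 0. Every other saline library lay above every AngII and AngII+ETH library, by a narrow margin against AngII (15.9 against 15.8 FPKM). Emilin1 encodes a glycoprotein at the interface of elastin and microfibrils that restrains TGF-beta processing in mice (chromosome 5, 30913402 to 30921277, plus strand). It was 1.23 to 5.37 FPKM in saline (median 3.64), 1.41 to 8.32 in AngII (median 3.61) and 1.46 to 12.6 in AngII+ETH (median 4.65), again lowest in the 3 libraries with Myl7 at 0.

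Fbln1, which encodes a secreted calcium-binding glycoprotein of elastic fibres and basement membranes, was the most abundant member by median (chromosome 15, 85205949 to 85286535, plus strand). It ranged from 28.8 to 201.5 FPKM in saline (median 146.4), 55.1 to 187.5 in AngII (median 124.7) and 48.7 to 190.8 in AngII+ETH (median 130.7). Its value in saline replicate 5 (28.8) was far below the next saline library (119.3). Fbln2 encodes a fibulin of basement membranes and elastic fibres (chromosome 6, 91212455 to 91272540, plus strand) and varied least. It was 30.7 to 57.3 FPKM in saline (median 42.4), 27.6 to 89.8 in AngII (median 40.7) and 45.4 to 74.9 in AngII+ETH (median 50.6).

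In the libraries with Myl7 at 0, all 10 members were the lowest of their group in at least 1 group. For every member this included saline replicate 5. The share of all genes lowest in at least 1 group was not counted. Fbln1, Efemp1 and Emilin1 were lowest in the libraries with Myl7 at 0 in all 3 groups, as were 1627 of 11703 tested genes (13.9%). The fibroblast marker sum in these libraries was 903, 1333 and 1196 FPKM for saline, AngII and AngII+ETH, against 1936 to 4131 in the other 15 libraries. The mesothelial marker sum was 2.09, 3.90 and 2.74 FPKM against 11.5 to 93.7. Whether these cells account for the low members was not tested.

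The first comparison set AngII beside saline, for the effect of the infusion on the elastic fibre genes. With limma on log2(FPKM + 1), adjusted over 11703 genes, 0 of 10 members passed an adjusted p of 0.05, where 0.00854% of all genes were called (1 gene). At an unadjusted p under 0.05, 0 of 10 members were higher (3.28% of genes) or lower (5.78%), and 0 of 10 had groups that did not overlap (0.162% of genes higher, 0.197% lower). Log2 fold changes were above 0 for 4 of 10 members, against 39.2% of all genes (51.4% after quantile normalization), with a median of -0.04 for the members and -0.06 for all genes. The count above 0 turned on single libraries. It was 0 without saline replicate 5 (34.5% of all genes) or AngII replicate 5 (36.2%). It was 1 without AngII replicate 6 (36.7%) and 7 without saline replicate 4 (45.5%). The members' median was -0.47 without AngII replicate 5, -0.35 without saline replicate 5 and 0.06 without saline replicate 4. For all genes these medians were -0.08, -0.10 and -0.02. Without saline replicate 5, 2 of 10 members were lower at an unadjusted p under 0.05, as were 12.5% of genes.

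Efemp1 had the most negative log2 fold change, called the estimate from here on, with 19.3 ± 9.58 FPKM in saline and 10.9 ± 5.04 in AngII (SD, n = 6; estimate -0.64, SE 0.493, limma adjusted p = 0.731). Fbln5 followed at 13.5 ± 6.78 and 9.21 ± 5.63 FPKM (estimate -0.53, SE 0.420, limma adjusted p = 0.740). Fbn1 was 17.6 ± 4.89 and 15.4 ± 8.23 FPKM (estimate -0.28, SE 0.300). The other 7 members lay between -0.14 and 0.11. Of these, Mfap4 was 43.3 ± 42.3 and 53.7 ± 72.5 FPKM, so that its 95% interval ran from -1.67 to 1.70. The widths of these intervals allow changes of more than 2-fold in either direction for Eln, Mfap4 and Mfap5.

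Without the 3 libraries with Myl7 at 0, chosen after seeing the data, 5 libraries per group remained, and 0% of genes were called at an adjusted p of 0.05. Efemp1 was then 22.7 ± 5.20 FPKM in saline and 12.4 ± 3.85 in AngII (n = 5; estimate -0.85, SE 0.245, unadjusted p = 0.00344, limma adjusted p = 0.242). It was 1 of 10 members whose AngII values all lay below saline, as did 1.95% of genes, and 1 of 10 at an unadjusted p under 0.05 and lower, as were 9.55% of genes. In this setting 0 of 10 members were higher at an unadjusted p under 0.05 (3.62% of genes), 0 lay wholly above saline (0.744%), and 1 of 10 estimates was above 0 (36.7%). The estimate without saline replicate 5 alone was -1.11 (limma adjusted p = 0.173). With covariates for the chamber and for adipocytes it was -0.26 (SE 0.290, limma adjusted p = 0.971), and without saline replicates 4 and 6, the libraries with high Adipoq, it was -0.29 (SE 0.552, limma adjusted p = 0.999). With all libraries of low Myl7 or Myl2 (under 10 FPKM) left out, 0 of 10 members were called (0.0169% of genes) and 0 of 10 estimates were above 0 (36.7%). At an unadjusted p under 0.05, 0 members were then higher (3.59%) and 2 were lower (8.27%), namely Efemp1 (-0.86, SE 0.281, limma adjusted p = 0.384) and Fbln5 (-0.99, limma adjusted p = 0.410).

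The second comparison, for the effect of ETH under infusion, set AngII+ETH beside AngII. The AngII+ETH files hold another list of transcripts than those of the other groups, so a difference in processing cannot be told apart from ETH here or against saline. With limma 0 of 10 members passed, where 0% of all genes were called. At an unadjusted p under 0.05 there were 224 genes in all, and 1 of 10 members was higher (1.26% of genes), with 0 lower (0.649%). For 0 of 10 members did the groups not overlap (0.0342% of genes higher, 0.0171% lower). Log2 fold changes were above 0 for 8 of 10 members, against 56.8% of all genes. Their median was 0.47 for the members and 0.02 for all genes. The members' median was 0.74 without AngII replicate 5, 0.71 without AngII+ETH replicate 4, 0.31 without AngII replicate 2 or AngII+ETH replicate 6, 0.30 without AngII replicate 3, 0.19 without AngII+ETH replicate 5 and 0.11 with a smooth muscle covariate. In these settings the median of all genes lay between -0.03 and 0.04. The members higher at an unadjusted p under 0.05 numbered 3 without AngII replicate 5 (1.98% of genes), 3 with the chamber covariate (3.91%) and 4 with sample weights (3.99%). The AngII libraries here are the same as those compared with saline above, and the AngII+ETH libraries are used again below, so the comparisons are not independent.

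Mean Fbn1 was 15.4 ± 8.23 FPKM under AngII and 26.7 ± 11.7 under AngII+ETH (SD, n = 6). The estimate was 0.79 (95% interval 0.16 to 1.42, unadjusted p = 0.0175, limma adjusted p = 1.00). Its estimate stayed above 0 when each library was left out in turn (0.64 to 1.0) and in the other alternatives (0.66 to 1.05). Mfap5 was 43.6 ± 53.1 and 54.7 ± 35.2 FPKM (estimate 0.70, SE 0.595), Fbln5 9.21 ± 5.63 and 14.0 ± 6.15 (0.66, SE 0.420), and Eln 32.0 ± 26.2 and 61.3 ± 53.2 (0.61, SE 0.596). Mfap4 was at 0.55 (SE 0.802), Emilin1 at 0.40 (SE 0.377) and Fbln2 at 0.24 (SE 0.236). These estimates moved with single libraries. Leaving out 1 library gave 0.44 to 1.18 for Mfap5, 0.41 to 0.87 for Fbln5, 0.26 to 1.02 for Eln, 0.21 to 1.09 for Mfap4, 0.17 to 0.67 for Emilin1 and 0.10 to 0.44 for Fbln2. The lowest came without AngII+ETH replicate 5, and for Fbln5 and Fbln2 without AngII replicate 4. Fbln1 (-0.04, SE 0.423), Efemp2 (0.00, SE 0.269) and Efemp1 (-0.17, SE 0.493) were close to 0 relative to their errors. For Efemp2 this rests on the transcripts in every file, and with all transcripts of each file its estimate was 0.30.

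When the 5 libraries in which Myl7 or Myl2 was under 10 FPKM were left out, 9 of 10 estimates were above 0 (61.2% of genes). From the groups compared, this setting removed AngII replicates 3 and 5 but only replicate 4 of AngII+ETH. The members' median was 0.78 (0.05 for all genes), and leaving out AngII replicate 5 alone already gave 0.74. Of the 10 members 5 were then higher at an unadjusted p under 0.05, as were 3.75% of genes, with 0 lower (1.14%), and 0 passed after adjustment, as did 0.00845% of genes (limma adjusted p = 0.949 for each of the 5). They were Mfap5 at 1.38 (SE 0.509), Fbn1 at 1.05 (SE 0.290), Fbln5 at 0.88 (SE 0.401), Emilin1 at 0.68 (SE 0.288) and Fbln2 at 0.53 (SE 0.210). Smooth muscle marker levels also differed in spread between these groups, with a summed level of 163 to 237 FPKM in AngII and 174 to 966 in AngII+ETH (142 to 1511 in saline). With that level as a covariate, chosen after seeing the data, the estimate was 0.10 for Eln (SE 0.417), -0.12 for Mfap4 (SE 0.585), 0.27 for Mfap5 (SE 0.487) and 0.66 for Fbn1 (SE 0.296). When only the 3 libraries with Myl7 at 0 were left out, 0 of 10 members were called (0% of genes), 1 was higher at an unadjusted p under 0.05 (1.9%), 0 were lower (0.998%) and 8 of 10 estimates were above 0 (57.8%). Groups did not overlap for 0 of 10 members there (0.355% of genes higher, 0.144% lower).

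The third comparison set AngII+ETH beside saline. With limma 0 of 10 members passed, where 0.00854% of genes were called. At an unadjusted p under 0.05, 0 of 10 were higher (3.5% of genes) or lower (4.01%), and 0 of 10 had groups that did not overlap (0.359% of genes higher, 0.248% lower). Log2 fold changes were above 0 for 7 of 10 members (43.7% of all genes), with a median of 0.38 against -0.03 for all genes. The members' median was 0.16 without AngII+ETH replicate 5, 0.20 without saline replicate 5 and 0.26 without AngII+ETH replicate 6. For all genes these medians were -0.07, -0.08 and -0.04. With the chamber covariate, and with that and the adipocyte covariate, 9 of 10 estimates were above 0 (51.8 and 58.0% of genes) and 3 of 10 members were higher at an unadjusted p under 0.05 (5.21 and 4.91%). Mfap5 was at 0.71 (SE 0.595), Mfap4 at 0.56 (SE 0.802), Emilin1 at 0.52 (SE 0.377), Fbn1 at 0.51 (SE 0.300), Eln at 0.47 (SE 0.596) and Fbln2 at 0.29 (SE 0.236). Leaving out AngII+ETH replicate 5 gave 0.46 for Mfap5, 0.29 for Emilin1, 0.12 for Eln and 0.20 for Fbln2, and leaving out saline replicate 5 gave 0.225 for Mfap4. Fbln5 was at 0.13, Fbln1 at -0.04 and Efemp2 at -0.07.

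Efemp1 was 19.3 ± 9.58 FPKM in saline and 9.41 ± 4.32 in AngII+ETH (estimate -0.80, 95% interval -1.84 to 0.23, limma adjusted p = 0.712). Without the 3 libraries with Myl7 at 0 it was 22.7 ± 5.20 and 10.7 ± 3.40 FPKM (n = 5; estimate -1.04, SE 0.245, unadjusted p = 0.000735, limma adjusted p = 0.136). That was the smallest adjusted p of any member in any setting run, and 0.0508% of genes were called in this one. It was 1 of 10 members whose groups did not overlap and which was lower, as were 1.51% of genes, and 1 of 10 at an unadjusted p under 0.05 and lower, as were 7.33% of genes. In this setting 0 of 10 members were higher at an unadjusted p under 0.05 (3.91%), 0 lay wholly above saline (1.18%), and 6 of 10 estimates were above 0 (41.4%). Without saline replicate 5 alone the estimate was -1.28 (limma adjusted p = 0.167). With chamber and adipocyte covariates it was -0.31 (SE 0.240), and without saline replicates 4 and 6 it was -0.46 (SE 0.552). The mesothelial marker sum in the same 15 libraries was 54.6 to 93.7 FPKM in saline, 30.5 to 81.8 in AngII and 11.5 to 71.0 in AngII+ETH, and its part in the Efemp1 values was not tested. When the 5 libraries of low Myl7 or Myl2 were left out, 0 of 10 members were called (0.0169% of genes) and 6 of 10 estimates were above 0 (44.2%). At an unadjusted p under 0.05, Efemp1 was then lower (-0.98, SE 0.267; 1 of 10 members against 5.86% of genes) and Emilin1 higher (0.63; 1 of 10 against 3.6%).

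**Figure D2:**
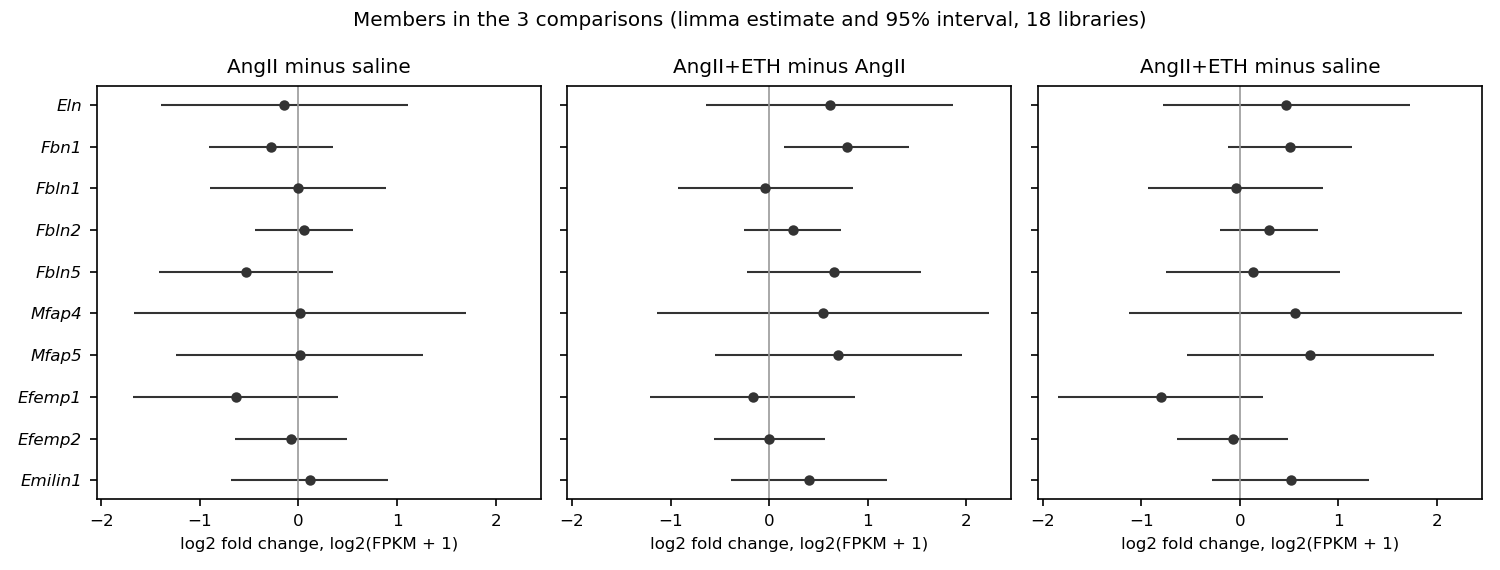
Log2 fold changes of the 10 genes on the log2(FPKM + 1) scale in the 3 comparisons; points are limma estimates over all 18 libraries and bars are 95% intervals. The interval of Fbn1 in AngII+ETH minus AngII (0.16 to 1.42) does not reach 0 before adjustment, and all other intervals cross 0.

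Levels of the members were related across libraries. The 3 libraries with Myl7 at 0 stand apart, so the relations are given over the other 15 first. Pearson's r between members on log2(FPKM + 1) ran from -0.33 to 0.93 over these 15 libraries, 41 of 45 pairs were positive, and 23 passed after Benjamini-Hochberg adjustment over the 45 (17 by Spearman's rho). With all 18 libraries r was positive for 45 of 45 pairs, from 0.20 to 0.93 with a median of 0.66, and 35 passed (35 by rho). With group means subtracted 41 of 45 passed over the 18. A library's tissue makeup is shared by all its values, and its part in these relations was not tested. How many pairs of other genes pass in the same way was not counted, so these counts do not set the members apart.

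The 2 highest values of r, over the 15 libraries and over all 18, were those of Mfap5 with Fbln2 and Mfap4. Fbln2 and Mfap5 had r = 0.93 over 15 libraries (permutation p = 1e-05, the smallest that 100000 resamples can give, adjusted p = 0.00045). Their rho was 0.88 (permutation p = 2e-05, adjusted p = 0.0009), and r was 0.91 without the 2 libraries farthest from the median of Fbln2. Mfap4 and Mfap5 had r = 0.91 (permutation p = 4e-05, adjusted p = 0.0009) and rho = 0.89 (permutation p = 5e-05, adjusted p = 0.00113), with r = 0.86 without the 2 farthest. Eln and Mfap5 had r = 0.79 (permutation p = 0.00062, adjusted p = 0.00558) and rho = 0.80 (permutation p = 0.00055, adjusted p = 0.00698), with r = 0.76 without the 2 farthest. Fbn1 and Mfap5 had r = 0.76 (permutation p = 0.00098, adjusted p = 0.00735) and rho = 0.72 (permutation p = 0.00311, adjusted p = 0.0200), with r = 0.82 without the 2 farthest. With all 18 libraries these 4 values of r were 0.91, 0.93, 0.83 and 0.79.

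Efemp1 had the weakest relations. Over 15 libraries 0 of its 9 pairs passed, and all 4 negative pairs were its own, with Emilin1 (r = -0.33), Mfap4 (-0.14), Mfap5 (-0.11) and Fbln2 (-0.05). With all 18 libraries its pairs with Fbln1 (r = 0.79, adjusted permutation p = 0.0008) and Fbln5 (r = 0.53, adjusted permutation p = 0.0309) passed. Over the 15 these were 0.26 and 0.22, so both relations rested on the 3 libraries with Myl7 at 0.

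**Figure D3:**
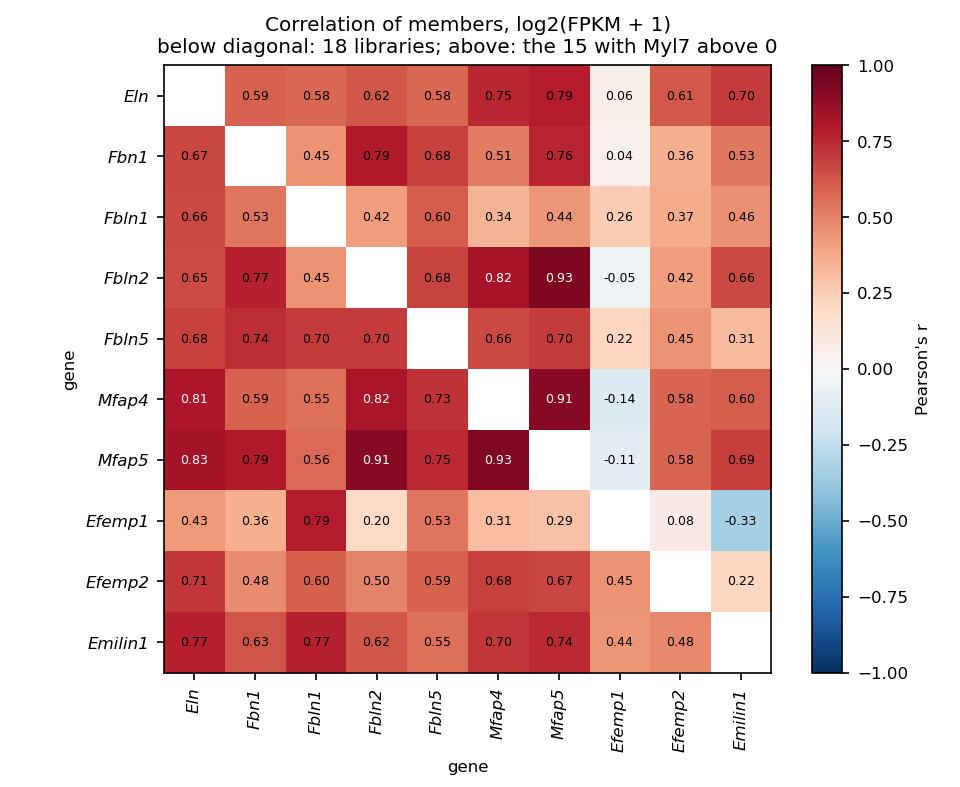
Pearson's r between the 10 genes on log2(FPKM + 1), with all 18 libraries below the diagonal and the 15 libraries with Myl7 above 0 above it; red is positive and blue negative. Mfap5 with Fbln2 and Mfap4 is at 0.91 and 0.93 below the diagonal and 0.93 and 0.91 above it, and the column of Efemp1 turns pale or blue above the diagonal.

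The members were also set against marker levels of 4 cell types, each the mean log2(FPKM + 1) of its list, which gave 40 relations. Over 15 libraries 15 passed by r and 16 by rho, and over 18 libraries 31 and 29. How many other genes pass with these markers was not counted. Fibroblast markers and Eln had r = 0.87 over the 15 (permutation p = 2e-05, adjusted p = 0.0008) and rho = 0.87 (permutation p = 5e-05, adjusted p = 0.002), with r = 0.86 without the 2 farthest libraries. The same markers and Fbln5 had r = 0.82 (permutation p = 0.00018, adjusted p = 0.0036) and rho = 0.85 (permutation p = 0.00018, adjusted p = 0.0036), with r = 0.77 without the 2 farthest. With Fbln1 they had r = 0.72 (permutation p = 0.00272, adjusted p = 0.00993) and rho = 0.55 (permutation p = 0.0376, adjusted p = 0.0716), with r = 0.49 without the 2 farthest and 0.89 over all 18 libraries. Over the 15, fibroblast markers also passed by r and by rho with Mfap5 (r = 0.80), Fbn1 (0.78), Fbln2 (0.75) and Mfap4 (0.71).

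Adventitial fibroblast markers and Fbln2 had r = 0.77 over the 15 (permutation p = 0.00076, adjusted p = 0.00608) and rho = 0.82 (permutation p = 0.0003, adjusted p = 0.00387), with r = 0.72 without the 2 farthest. The r of Fbln2 with the general fibroblast markers was close to this (0.75). Adventitial fibroblast markers also passed by r and by rho with Fbn1 (r = 0.75) and Mfap5 (0.73). Smooth muscle markers and Eln had r = 0.71 (permutation p = 0.00273, adjusted p = 0.00993) and rho = 0.80 (permutation p = 0.00055, adjusted p = 0.00387), with r = 0.88 without the 2 farthest. Smooth muscle markers also passed by r and by rho with Efemp2 (r = 0.68) and Mfap4 (0.67). Mesothelial markers and Efemp1 had r = 0.70 (permutation p = 0.00281, adjusted p = 0.00993) and rho = 0.68 (permutation p = 0.00674, adjusted p = 0.0207), with r = 0.69 without the 2 farthest and 0.90 over all 18 libraries. Of the other members only Fbln1 passed with mesothelial markers over the 15 by r (0.63, adjusted permutation p = 0.0334), and it did not by rho (0.51, adjusted permutation p = 0.0945).

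**Figure D4:**
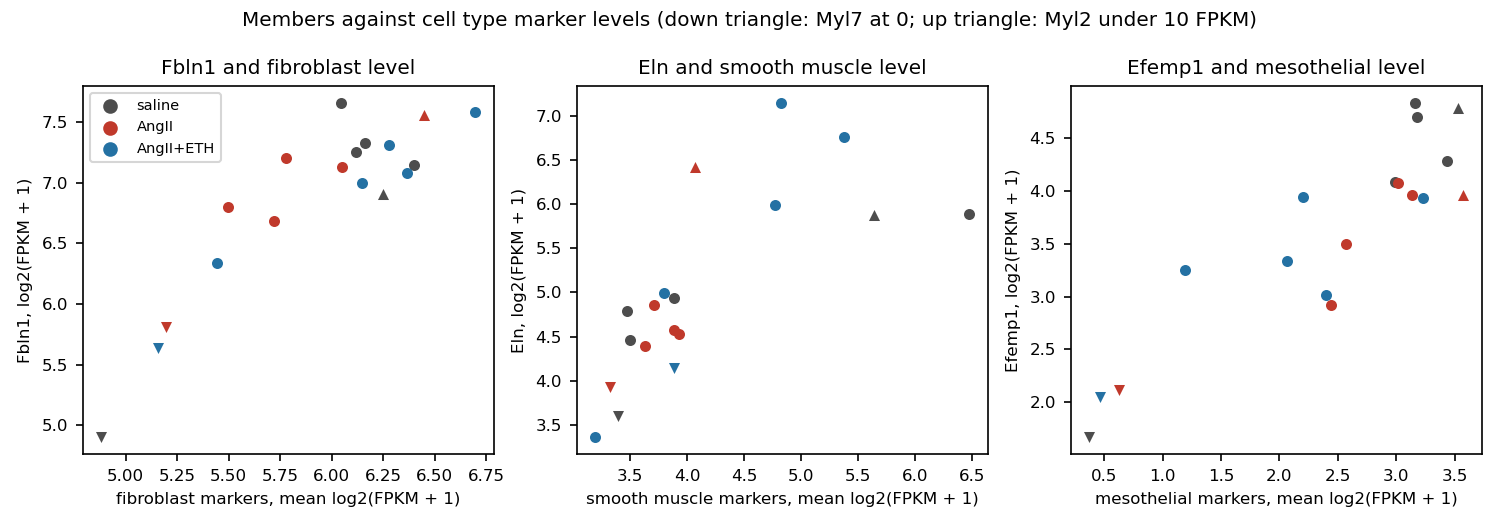
Fbln1 against fibroblast, Eln against smooth muscle and Efemp1 against mesothelial marker levels, each on log2(FPKM + 1), with a point per library coloured by group; down triangles are the libraries with Myl7 at 0 and up triangles those with Myl2 under 10 FPKM. The 3 down triangles lie at the lower left for Fbln1 and Efemp1, and the relation of Eln (r = 0.74) has 2 saline libraries at the far right.

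The tested genes whose pattern was most like each member over the 18 libraries, by r and with no test, differed between members. Eln was nearest to Fn1 (fibronectin, 0.93), Ext1 (0.92) and Lmo4 (0.92). Fbn1 was nearest to Cd55 (0.92), Cd34 (0.91) and Axl (0.88). Fbln1 was nearest to Gsn, a fibroblast marker used above (0.98), Dkk3 (0.96) and Slc17a7 (0.95). Fbln2 was nearest to Dbn1 (0.94), Nid1 (nidogen of basement membranes, 0.92) and Ifngr1 (0.91), and Fbln5 to Rhoj (0.92) and Cd302 (0.88). Mfap4 was nearest to Itgbl1 (0.98), Pmepa1 (0.97) and Gxylt2 (0.96), and Mfap5 to the lysyl oxidase Loxl1 (0.97) and Nbl1 (0.95). Efemp1 was nearest to Hpgd (0.96), Igfbp5 (0.95) and Dpp4 (0.94), Efemp2 to Eif4b (0.89), Bdh2 (0.85) and Morf4l1 (0.85), and Emilin1 to Lrrc75a (0.91), Calhm2 (0.91) and Vopp1 (0.89). Over the 15 libraries with Myl7 above 0 the r of these named pairs was 0.81 to 0.98. No member was among the 3 nearest of another over the 18. Of these genes Cd34 and Dpp4 are also in the adventitial fibroblast list, Dkk3 in the atrial list, and Fn1 and Loxl1 in the list of partners below.

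Transcripts of the members were listed separately in the files. Efemp1 and Emilin1 had 1 transcript in every file. Fbln1 had 2, Fbln1-201 and Fbln1-202, which share 1832 bases on chromosome 15 (plus strand, GRCm38, GENCODE M21), up to position 85244306, and then go on into different coding exons. The sequences around the split are shown because they are where the 2 forms part, with the shared bases in lower case and the private bases in capitals. Private bases begin at 85263259 in Fbln1-201 and at 85251445 in Fbln1-202.
Fbln1-201: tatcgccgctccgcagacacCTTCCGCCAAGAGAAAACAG
Fbln1-202: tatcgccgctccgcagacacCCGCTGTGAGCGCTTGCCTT
Fbln1-201 held 50.7 to 58.0% of Fbln1 in saline (median 53.7), 47.6 to 67.3% in AngII (median 51.8) and 52.6 to 63.5% in AngII+ETH (median 55.9). The groups overlapped, and the highest shares were those of AngII replicate 5 (67.3%), AngII+ETH replicate 5 (63.5%) and AngII replicate 6.

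Mfap4 had 3 transcripts, of which Mfap4-203 is annotated without a coding sequence. It was 38.9 FPKM in saline replicate 4, 52.0 in saline replicate 6, 81.0 in AngII replicate 5, 29.3 in AngII replicate 6 and 43.9 in AngII+ETH replicate 5. These are 5 of the 7 libraries in the high band of Mfap4. The other 2, AngII+ETH replicates 3 and 6, had 0.80 and 0.03 FPKM of it. Its share of the gene ran from 0 to 54.5% with a median of 0.58%. The 2 coding forms also differed between these libraries, where Mfap4-201 was 40.7 FPKM in AngII+ETH replicate 3 and 4.65 in replicate 6, and Mfap4-202 was 51.9 and 75.3. A division of reads between overlapping transcripts is an estimate, so shares are less certain than sums. The AngII+ETH files hold another list of transcripts, so shares in that group may not be comparable with the others.

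**Figure D5:**
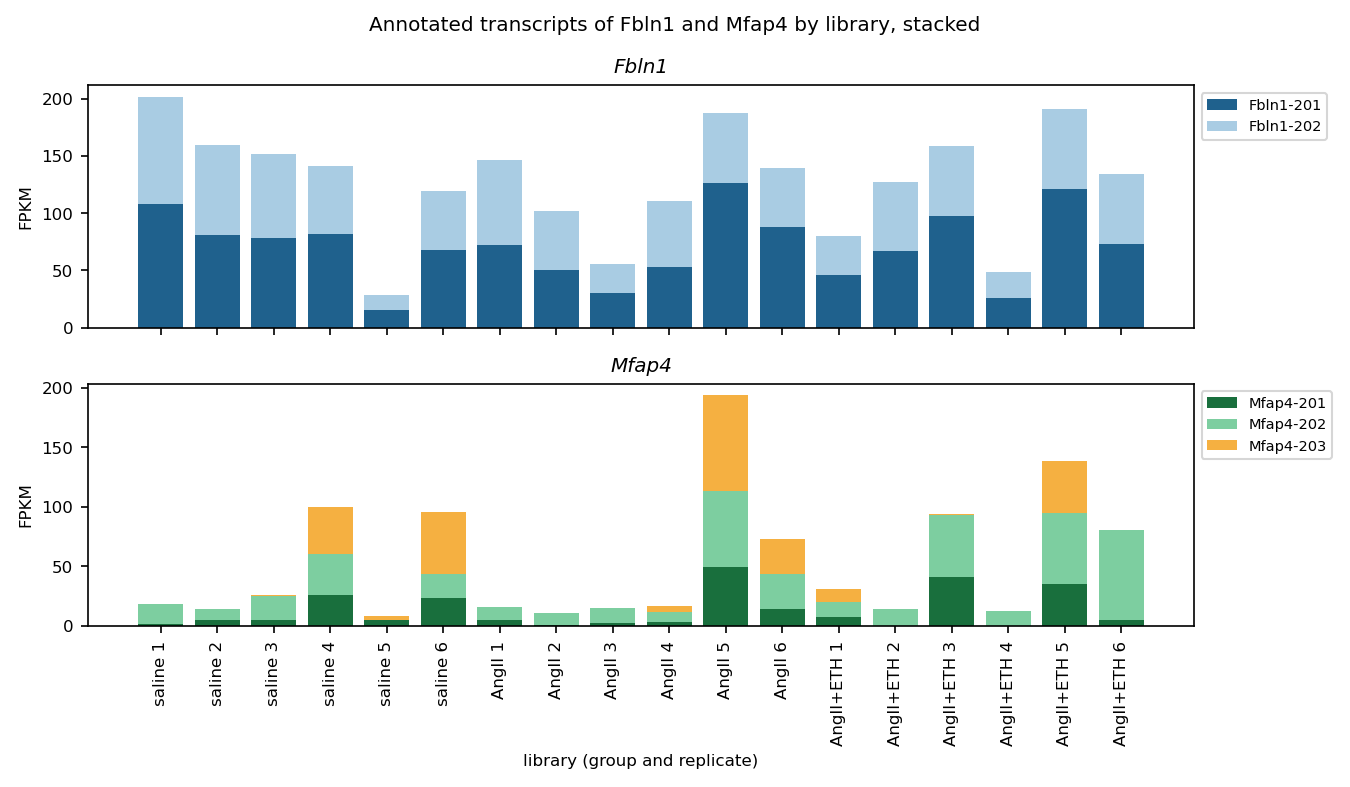
FPKM of the annotated transcripts of Fbln1 and Mfap4 in each library, stacked so that a bar's height is the gene's value. Fbln1-201 takes 47.6 to 67.3% of Fbln1, most in AngII replicate 5, while Mfap4-203 is 29.3 FPKM or more in 5 libraries and near 0 in AngII+ETH replicates 3 and 6.

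Fbln5 was split between Fbln5-201 and Fbln5-203 in shares that varied widely, with 8.93 to 79.2% for Fbln5-201. Fbn1-201 held 53.9 to 96.9% of Fbn1. Fbln2-201 held 40.5 to 75.3% of Fbln2, and Mfap5-207 held 59.4 to 92.2% of Mfap5. For each of these the group ranges overlapped.

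Partners of the elastic fibre were taken from a list of 48 other genes (fibrillin relatives, latent TGF-beta binding proteins, lysyl oxidases, elastases, integrins), of which 41 were in the files and 40 were tested. With limma 0 of 40 passed in any comparison. At an unadjusted p under 0.05, 1 of 40 was higher in AngII than saline (3.28% of all genes), 1 in AngII+ETH than AngII (1.26%) and 2 in AngII+ETH than saline (3.5%), and 0 were lower (5.78, 0.649 and 4.01%). These counts moved with the setting. For AngII against saline 4 were lower without saline replicate 5 (12.5%). The 1 higher became 0 without saline replicate 1, 4 or 6 or AngII replicate 3 or 6, where 300 to 395 of all genes were higher. It was also 0 with the smooth muscle covariate, with chamber and adipocyte covariates and without the saline libraries with high Adipoq (436, 354 and 347 of all genes). For AngII+ETH against AngII 8 were higher without the 5 libraries of low Myl7 or Myl2 (3.75%), and against saline 8 with the chamber covariate (5.21%). Estimates above 0 numbered 13, 31 and 25 of 40, against 39.2, 56.8 and 43.7% of all genes. With the smooth muscle covariate they numbered 26, 20 and 25, against 50.3, 42.1 and 44.8% of all genes. Without AngII replicate 5 the first number was 7 (36.2% of all genes).

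Loxl2, which encodes a lysyl oxidase that cross-links collagen and elastin, had the smallest unadjusted p of the list. It was 3.21 to 5.80 FPKM in AngII (median 4.32), 4.80 to 12.0 in AngII+ETH (median 9.95) and 4.14 to 7.32 in saline (median 6.17). Of the AngII libraries 5 lay below every AngII+ETH library, and replicate 6 did not. Its log2 fold change was 0.88 for AngII+ETH against AngII (SE 0.197, unadjusted p = 0.000298, limma adjusted p = 1.00), 0.50 against saline (SE 0.197, unadjusted p = 0.0195, limma adjusted p = 0.539) and -0.38 for AngII against saline (SE 0.197). In AngII+ETH its lowest values were in replicates 4 (4.80) and 1 (6.19), where Eln and Mfap5 were also lowest.

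Vtn, which encodes vitronectin, was 10.7 ± 5.53 FPKM in saline, 16.2 ± 4.18 under AngII and 15.6 ± 4.92 under AngII+ETH (SD, n = 6). Its log2 fold change was 0.65 for AngII (SE 0.263, unadjusted p = 0.0242, limma adjusted p = 0.508) and 0.58 for AngII+ETH against saline (SE 0.263, unadjusted p = 0.0425, limma adjusted p = 0.654). Vtn was the 1 partner counted above as higher in AngII than saline. That count fell to 0 in several settings, as given there. Next in size of unadjusted p for AngII against saline were Svep1 (0.51, SE 0.403) and the copper transporter Atp7a (0.27, SE 0.239) above 0, and the integrin Itgb3 (-0.60, SE 0.318) and the gelatinase Mmp9 (-0.53, SE 0.291) below 0. For AngII+ETH against AngII they were the proteoglycan Vcan (0.41, SE 0.258) and Mmrn1 (0.37, SE 0.256) above 0, and Mmrn2 (-0.23, SE 0.20), Hmcn1 (-0.21, SE 0.222) and Mfap1a (-0.16, SE 0.169) below 0. Against saline, Ltbp2, a latent TGF-beta binding protein, was at 1.46 (SE 0.875), Mmp9 at -0.52 (SE 0.291), Mfap1a at -0.22 (SE 0.169) and Hmcn1 at -0.29 (SE 0.222).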

How the data were processed

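The deposited files give one value per transcript and library on the FPKM scale, which the authors computed; the unit was inferred here from the values, and the sources used here name no aligner, counter or genome build. The submitters' processing notes name limma. Transcripts present in every file (28886) were kept, 8239 without a gene name were left out, and the rest were summed per gene with GENCODE M21 (12911 genes). The deposited values were put on the log2(FPKM + 1) scale. Genes with a group mean of at least 1 FPKM (11703) entered 1 limma 3.58.1 fit with an intensity trend over all 18 libraries (R 4.3.3), with Benjamini-Hochberg adjustment and a threshold of 0.05. Correlations used 100000 permutations (Python 3.11.15, NumPy 2.4.6). Steps were tested on simulated data. The members and lists were chosen with earlier results of these data known. All members are named, and of the partner list up to 3 genes per direction and comparison with the smallest unadjusted p. For each member the 3 tested genes with the highest r over the 18 libraries are named, except some that are not reported here.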

Additional observations from a re-analysis of the deposited data

Results flagged for a closer look

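In 5 of 30 sets of a member and a group the highest library stood apart from the other 5, with a gap to the next library over the range of the group above Dixon's critical value of 0.625 for 6 samples. Chance gives about 1 in 20 such sets where values are normal and independent, which was not tested for these FPKM values of related genes. Among all tested genes a library stood apart in this way for 7.54% in saline, 11.6% under AngII and 6.78% under AngII+ETH. Of the 1359 such genes in AngII, 769 were high in replicate 5. AngII replicate 5, in which Myl2 was 3.37 FPKM, held 4 of them. These were Eln at 84.7 FPKM (next 28.1), Mfap4 at 193.8 (next 72.4), Mfap5 at 147.4 (next 53.5) and Efemp2 at 10.66 (next 5.58). Efemp2 in saline replicate 4 was 13.97 FPKM (next 6.99). This library had Adipoq at 105 FPKM and the highest smooth muscle marker sum of all libraries (1511 FPKM). The part of the chamber, smooth muscle and adipocyte levels in these values was not tested.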

How the results depend on the processing

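Over 33 alternatives 0 of 990 member values passed the threshold, with a smallest limma adjusted p of 0.136, and 16 of 30 member comparisons kept 1 sign in every setting. These were Fbn1, Fbln5 and Efemp1 for AngII against saline, Eln, Fbn1, Fbln2, Fbln5, Mfap5 and Emilin1 for AngII+ETH against AngII, and Eln, Fbn1, Fbln2, Mfap4, Mfap5, Efemp1 and Emilin1 for AngII+ETH against saline. The smooth muscle covariate and the fits without libraries with Myl7 at 0 or saline libraries with Adipoq above 100 FPKM were chosen after seeing the data. No paired analysis was possible because the replicate numbers only follow the order of the samples. Fragment numbers are inferred, so what depth limits could not be tested. The cause of the shifts below was not tested.

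For AngII against saline 1 of all genes was called. This count was 2 with median-of-ratios scaling, with quantile normalization, without the 5 libraries of low Myl7 or Myl2 (under 10 FPKM), with the smooth muscle covariate and without the saline libraries with high Adipoq. It was 3 with sample weights, 6 with the chamber covariate, and 0 with only the 2 groups compared, with chamber and adipocyte covariates and without the libraries with Myl7 at 0. Leaving out 1 library gave 0 to 11, with 11 without saline replicate 5. For AngII+ETH against AngII it was 0, and 1 without the 5 libraries of low Myl7 or Myl2. For AngII+ETH against saline it was 1. It became 21 with all transcripts of each file, 4 with sample weights, 6 without the libraries with Myl7 at 0, and 0 with only the 2 groups compared. It was 2 with chamber and adipocyte covariates, without the 5 libraries of low Myl7 or Myl2 and without the saline libraries with high Adipoq. Leaving out 1 library gave 0 to 8.

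For AngII against saline 4 members were above 0, against 39.2% of all genes. The number was 0 with sample weights (37.4% of all genes) and without the 5 libraries of low Myl7 or Myl2 (36.7%). It was 1 without the libraries with Myl7 at 0 (36.7%). It was 7 with the smooth muscle covariate (50.3%) and without the saline libraries with high Adipoq (52.9%). With 1 library left out it was 0 to 7 (34.5 to 45.5%). Without the libraries with Myl7 at 0, 23 member pairs passed in place of 35, and 15 relations with cell type levels in place of 31. For neither count was a share over all genes computed.

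Signs turned as follows for AngII against saline (log2 fold changes). With the chamber covariate Eln was 0.038 and Fbln1 0.16. With chamber and adipocyte covariates Eln was 0.37, Efemp2 0.13, Emilin1 -0.11, Itgb3 0.049 and Mmp9 0.13. With the smooth muscle covariate Eln was 0.45, Fbln1 0.19 and Efemp2 0.18. Without the saline libraries with high Adipoq Eln was 0.34, Fbln1 0.078 and Efemp2 0.17. Fbln1 was 0.054 with median-of-ratios scaling and 0.022 with quantile normalization. With sample weights Fbln2 was -0.12, Mfap4 -0.19, Mfap5 -0.23 and Emilin1 -0.20. Without the 5 libraries of low Myl7 or Myl2 Fbln2 was -0.21, Mfap4 -0.43, Mfap5 -0.37 and Emilin1 -0.048. Without the libraries with Myl7 at 0 Fbln2 was -0.040, Mfap4 -0.14 and Mfap5 -0.041. With 1 library left out the ranges were -0.47 to 0.050 for Eln, -0.40 to 0.21 for Fbln1, -0.14 to 0.19 for Fbln2, -0.53 to 0.37 for Mfap4, -0.46 to 0.24 for Mfap5, -0.23 to 0.13 for Efemp2 and -0.087 to 0.30 for Emilin1.

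For AngII+ETH against AngII Fbln1 was 0.060 with sample weights, 0.13 with the chamber covariate, 0.20 with chamber and adipocyte covariates and 0.11 without the 5 libraries of low Myl7 or Myl2. Efemp1 was 0.031 with the chamber covariate, and Hmcn1 0.0017 with chamber and adipocyte covariates. Efemp2 was -0.013 with median-of-ratios scaling and -0.023 with quantile normalization. With the smooth muscle covariate Efemp2 was -0.215 and Mfap4 -0.12. With 1 library left out the ranges were -0.25 to 0.20 for Fbln1, -0.43 to 0.073 for Efemp1 and -0.11 to 0.16 for Efemp2. For AngII+ETH against saline Fbln1 was 0.29 with the chamber covariate, 0.20 with chamber and adipocyte covariates and 0.040 without the saline libraries with high Adipoq. Fbln5 was -0.11 without the 5 libraries of low Myl7 or Myl2 and -0.084 without those with Myl7 at 0. Efemp2 was 0.20 with all transcripts of each file, 0.070 with the chamber covariate, 0.14 with chamber and adipocyte covariates and 0.18 without the saline libraries with high Adipoq. With 1 library left out the ranges were -0.44 to 0.20 for Fbln1, -0.18 to 0.32 for Fbln5 and -0.22 to 0.14 for Efemp2.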

Other observations

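Some transcripts of the members were listed in only some of the files. They entered the comparisons only in the alternative with all transcripts of each file. Eln-203 was listed for saline and AngII libraries, at 0.712 ± 1.05 and 0.135 ± 0.277 FPKM (SD, n = 6). Efemp2-206 was listed for the same libraries, at 0.505 ± 0.771 and 0.412 ± 0.543 FPKM. Efemp2-210 and Efemp2-215 were listed for AngII+ETH libraries, at 0.731 ± 0.759 and 1.56 ± 1.44 FPKM.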
